A study of Mus musculus with 16 samples.

Results

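The genes of fatty acid uptake and mitochondrial fatty acid oxidation were examined in mouse heart. The set held 32 genes chosen by name, and all 32 were found on the array by an exact match of the gene name among spots that were not controls. They were read by 42 probes and made up 32 of the 22762 features tested. Every member was well above background on all 16 arrays and none was saturated, so the filter on dim probes removed none of them.

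Hearts came from C57BL/6 mice in a model of posttraumatic stress disorder, and 16 individual hearts were each read on an array of their own, 4 per group. The stressor was social defeat: a mouse in a wire mesh box was placed in an aggressor's cage and was attacked there. T1R1, T2R1 and T3R1 name 1, 2 and 3 days of this, each with 1 day of rest before the heart was taken. Controls were boxed too, but with no aggressor, and carry the label of 2 days and 1 day of rest, which matches T2R1 alone. The protocol describes a longer course than these names state, and the names are used here; neither age nor sex is given in the labels used here.

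Fatty acids are the main fuel of the adult heart. Lipoprotein lipase frees them from circulating triglyceride, CD36 and the fatty acid transport proteins bring them into the cell, and acyl-CoA synthetase activates them. The carnitine palmitoyltransferases then carry the acyl chain into mitochondria, where the dehydrogenases, hydratases and thiolases of the beta-oxidation spiral shorten it and the electron transfer flavoprotein passes its electrons to the respiratory chain. Many of these genes are known targets of the nuclear receptor PPAR alpha, of the estrogen-related receptors and of the coactivator PGC-1 alpha.

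Such receptors bind the hexamer AGGTCA, and the upstream sequence of 4 members is shown because each held that hexamer on either strand and because their values went different ways below: Acadm and Cd36 read lower on the T3R1 arrays, while Cpt1a and Ucp3 differed little. Each is the run of 250 bases before the gene's start in RefSeq (GRCm38.p6), 5′ to 3′ on the gene's strand, with AGGTCA or its complement TGACCT in capitals. The Acadm run is chr3:153944644-153944893 on the minus strand, the Cd36 run is chr5:17835897-17836146 on the minus strand, the Cpt1a run is chr19:3323051-3323300 on the plus strand and the Ucp3 run is chr7:100472741-100472990 on the plus strand.
Acadm: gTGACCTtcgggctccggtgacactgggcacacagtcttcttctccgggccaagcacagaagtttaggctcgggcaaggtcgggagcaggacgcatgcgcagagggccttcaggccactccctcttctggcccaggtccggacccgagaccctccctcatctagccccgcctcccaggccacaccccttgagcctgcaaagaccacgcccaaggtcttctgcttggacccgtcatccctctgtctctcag
Cd36: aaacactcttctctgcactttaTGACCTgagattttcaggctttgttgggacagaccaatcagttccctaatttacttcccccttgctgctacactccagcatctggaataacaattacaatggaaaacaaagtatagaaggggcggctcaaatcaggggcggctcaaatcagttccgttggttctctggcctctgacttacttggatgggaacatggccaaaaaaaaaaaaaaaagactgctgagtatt
Cpt1a: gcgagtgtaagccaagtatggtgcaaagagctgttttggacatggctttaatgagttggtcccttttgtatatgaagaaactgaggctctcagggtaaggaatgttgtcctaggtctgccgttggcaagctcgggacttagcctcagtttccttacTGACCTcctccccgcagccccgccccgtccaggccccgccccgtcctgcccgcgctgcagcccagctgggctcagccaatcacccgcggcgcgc
Ucp3: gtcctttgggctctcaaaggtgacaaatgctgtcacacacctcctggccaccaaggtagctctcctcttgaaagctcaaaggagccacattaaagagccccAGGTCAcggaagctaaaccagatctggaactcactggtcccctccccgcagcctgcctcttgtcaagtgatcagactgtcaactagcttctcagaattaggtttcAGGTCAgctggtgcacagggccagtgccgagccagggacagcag

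A RefSeq window was matched for 27 of the 32 members. The hexamer was present in 6 of the 27 (22.2%): the 4 shown and Acadvl and Echs1. Counted by window, as for the background that follows, 6 of the members' 31 windows held it. Over all 32851 RefSeq windows of the same length, 14.0% held it. The full PPAR direct repeat, AGGTCA with a copy of itself after 1 further base, was in 0 of the 27 members' windows and in 0.0335% of all windows. The extended site TCAAGGTCA, which holds the hexamer within it, was also in 0 of the 27 and in 0.387% of all windows. CACGTG occurred upstream of Lipe and Slc27a1 (6.02% of all windows) and TATAAA upstream of Acacb (12.4% of all windows). These matches describe letters in the windows and were not tested for binding. Ucp3 carried the hexamer at 2 places, 149 and 44 bases before its start, and Cpt1a carried it 94 bases before its start.

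Signals are given as log2 values over the 75th percentile of their array, so a value of 3 is a probe 8 times as bright as that percentile; values of different probes are not comparable with each other, and each mouse gave 1 array. The 75th percentile was 550.7 scanner units on control replicate 1, from 257.6 to 273.1 on control replicates 2 to 4 and from 285.5 to 407.9 on the exposed arrays. Control and T3R1 arrays shared 1 slide and scan, and T1R1 and T2R1 arrays shared the other, so in the contrasts across slides, exposure and slide cannot be told apart: T1R1 against control, T2R1 against control, T3R1 against T1R1 and T3R1 against T2R1. Over all features, control replicate 1 had a mean correlation of 0.988 with the T3R1 arrays and of 0.970 with the other control arrays. Why that array stood apart cannot be told from these values. A wrong label and a heart that differed from the other controls are among the possibilities. Results against control are therefore given with and without the library labelled control replicate 1. That array was singled out from these same values, and leaving out a control close to T3R1 tends to widen the differences of T3R1 from control. The p-values without it do not allow for this choice. P-values come from limma with Benjamini-Hochberg adjustment over all 22762 features, except those of second probes, which come from a fit of all 31386 kept probes adjusted over these probes; a difference was called at an adjusted p under 0.05.

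Across the 32 genes, T3R1 had the lowest group mean for 28. The median log2 difference of T3R1 from control was -0.47 with all 4 controls, against -0.08 over all features, and 31 of the 32 differences were negative, against 61.6% of all features. No member passed the threshold in that comparison, in which 0.694% of all features were called. At an unadjusted p under 0.05 the count was 23 of 32 members and 22.4% of all features, and for 3 members all T3R1 values lay below all control values, against 4.39% of all features. Without control replicate 1, 28 of the 32 genes were lower in T3R1 and none was higher, where 19.2% of all features were called lower, and the median of the members was -0.65 against -0.13 over all features. For 27 members all T3R1 values lay below control replicates 2 to 4, against 26.2% of all features. The 4 genes not called were Cpt1a, Ucp3, Angptl4 and Lipe. T3R1 and control shared a slide, and with only these groups in the fit and control replicate 1 left out, 26 members were called lower, beside 17.3% of all features. Control replicate 1 alone thus decided the count.

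The position of that array was the same for most members. Its value lay below all other controls for 29 genes, within the range of the T3R1 arrays for 12, below all T3R1 arrays for 14 and above all of them for 6. The median deviation of the members from the mean of control replicates 2 to 4 was -0.77 on control replicate 1 and -0.76, -0.63, -0.74 and -0.51 on the T3R1 arrays. On control replicates 2 to 4 it was 0.03, -0.01 and -0.00, small by construction because their own mean is the reference. The T1R1 arrays gave -0.13, -0.55, -0.11 and -0.30, and the T2R1 arrays -0.18, -0.34, -0.16 and -0.34. T1R1 replicate 2 was the lowest T1R1 array for 29 of the 32 genes.

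**Figure D1:**
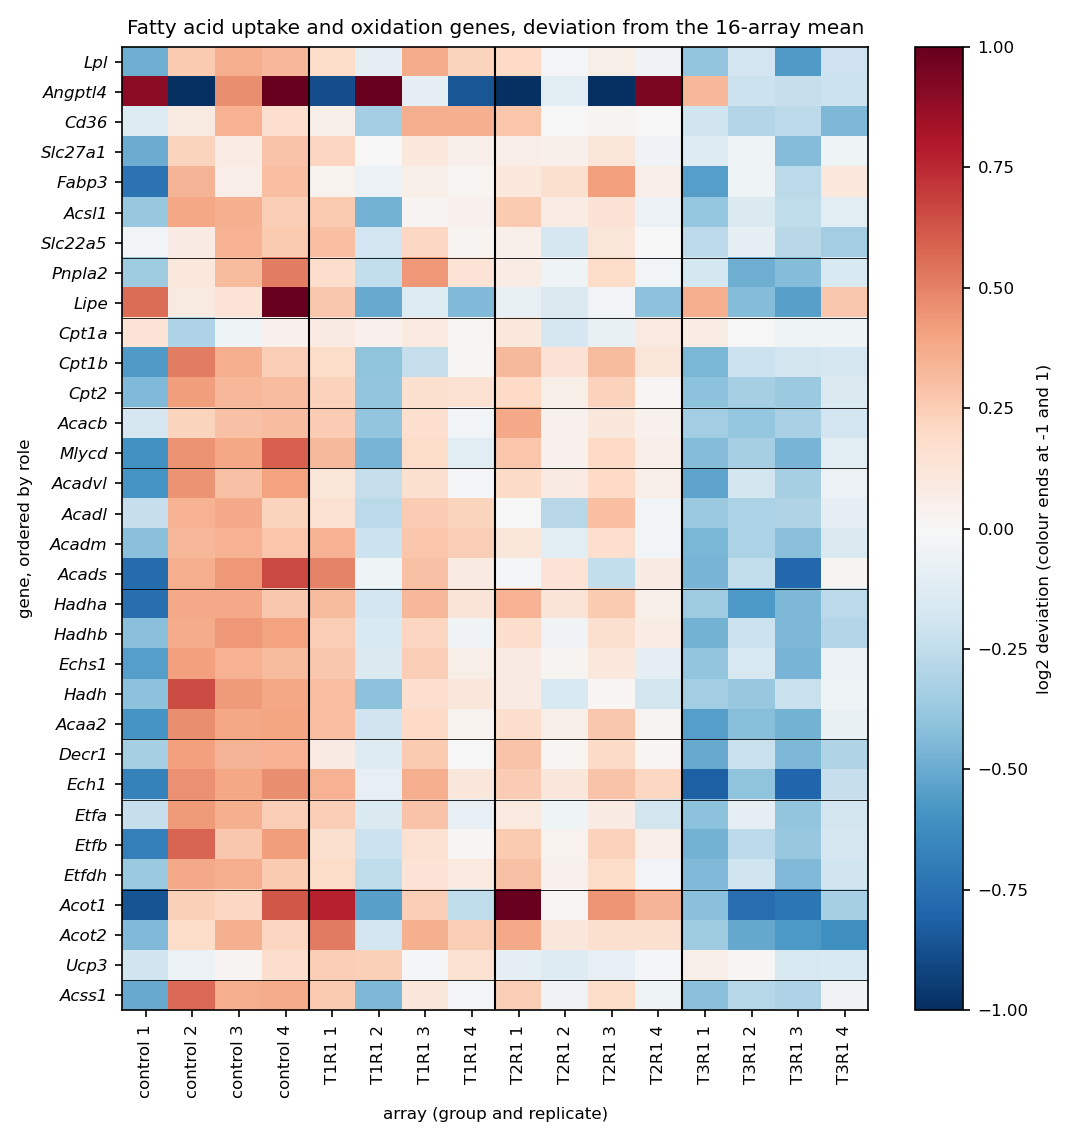
Deviation of each of the 32 genes (vertical axis, ordered by role) from its mean over 16 arrays, on the log2 scale, for each array (horizontal axis, by group and replicate); red is higher and blue lower, and colour ends at -1 and 1. Control replicate 1 and the 4 T3R1 arrays are blue for most genes, control replicates 2 to 4 are red, and Angptl4, Lipe, Cpt1a and Ucp3 depart from that pattern.

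Genes of uptake, binding and activation were lower in T3R1 for 6 of 7 members once control replicate 1 was left out, the exception being Angptl4. Lpl, the lipase of the capillary wall that frees fatty acids from lipoproteins, read 7.69 on control replicate 1 and 8.44, 8.54 and 8.51 on the other controls. It read 8.36, 8.09, 8.55 and 8.4 in T1R1, 8.38, 8.16, 8.24 and 8.14 in T2R1, and 7.78, 7.99, 7.61 and 7.97 in T3R1. All T3R1 arrays lay below all T1R1 and T2R1 arrays and below control replicates 2 to 4. Lpl fell in T3R1 against T1R1 by 0.51 on the log2 scale (SE 0.17, adjusted p = 0.0426), and its difference from control was -0.46 (SE 0.17, adjusted p = 0.142), or -0.66 without control replicate 1 (SE 0.12, adjusted p = 0.00156).

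Cd36, the fatty acid translocase of the cell membrane, read 5.06, 5.28, 5.54 and 5.36 in control and 5.25, 4.85, 5.56 and 5.55 in T1R1. It read 5.47, 5.19, 5.22 and 5.20 in T2R1 and 4.99, 4.90, 4.93 and 4.74 in T3R1. The T3R1 arrays lay below every control and T2R1 array but overlapped T1R1 through T1R1 replicate 2. The difference of T3R1 from control was -0.42 (SE 0.15, adjusted p = 0.124), and -0.51 without control replicate 1 (SE 0.15, adjusted p = 0.0240), a level 0.704 times that of the remaining controls. Cd36 was 1 of the 6 members whose value on control replicate 1 lay above all T3R1 values, the others being Acacb, Angptl4, Cpt1a, Lipe and Slc22a5.

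The other members of this group were Fabp3, the fatty acid binding protein of heart muscle; Slc27a1, a fatty acid transport protein; Acsl1, the main long-chain acyl-CoA synthetase of heart; and Slc22a5, the carnitine transporter. Without control replicate 1 their differences between T3R1 and control were -0.42, -0.36, -0.55 and -0.48, with adjusted p-values of 0.0343, 0.0166, 0.0120 and 0.00931. With all controls they were -0.18, -0.18, -0.38 and -0.42 and none passed. The small difference of Fabp3 turned to 0.042 under quantile normalization and to 0.022 in the authors' deposited table with all controls.

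Angptl4, a secreted inhibitor of lipoprotein lipase and a known PPAR target, varied more between hearts of a group than any other member, with a pooled SD within groups of 0.942. It read 2.84, 0.84, 2.41 and 3.69 in control, 1.06, 3.37, 1.86 and 1.09 in T1R1, 0.94, 1.84, 0.88 and 2.89 in T2R1, and 2.28, 1.73, 1.72 and 1.73 in T3R1. Every group overlapped every other. Its difference between T3R1 and control was -0.58 (SE 0.61, adjusted p = 0.595), with a standard error larger than the whole difference of Lpl in that comparison.

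**Figure D2:**
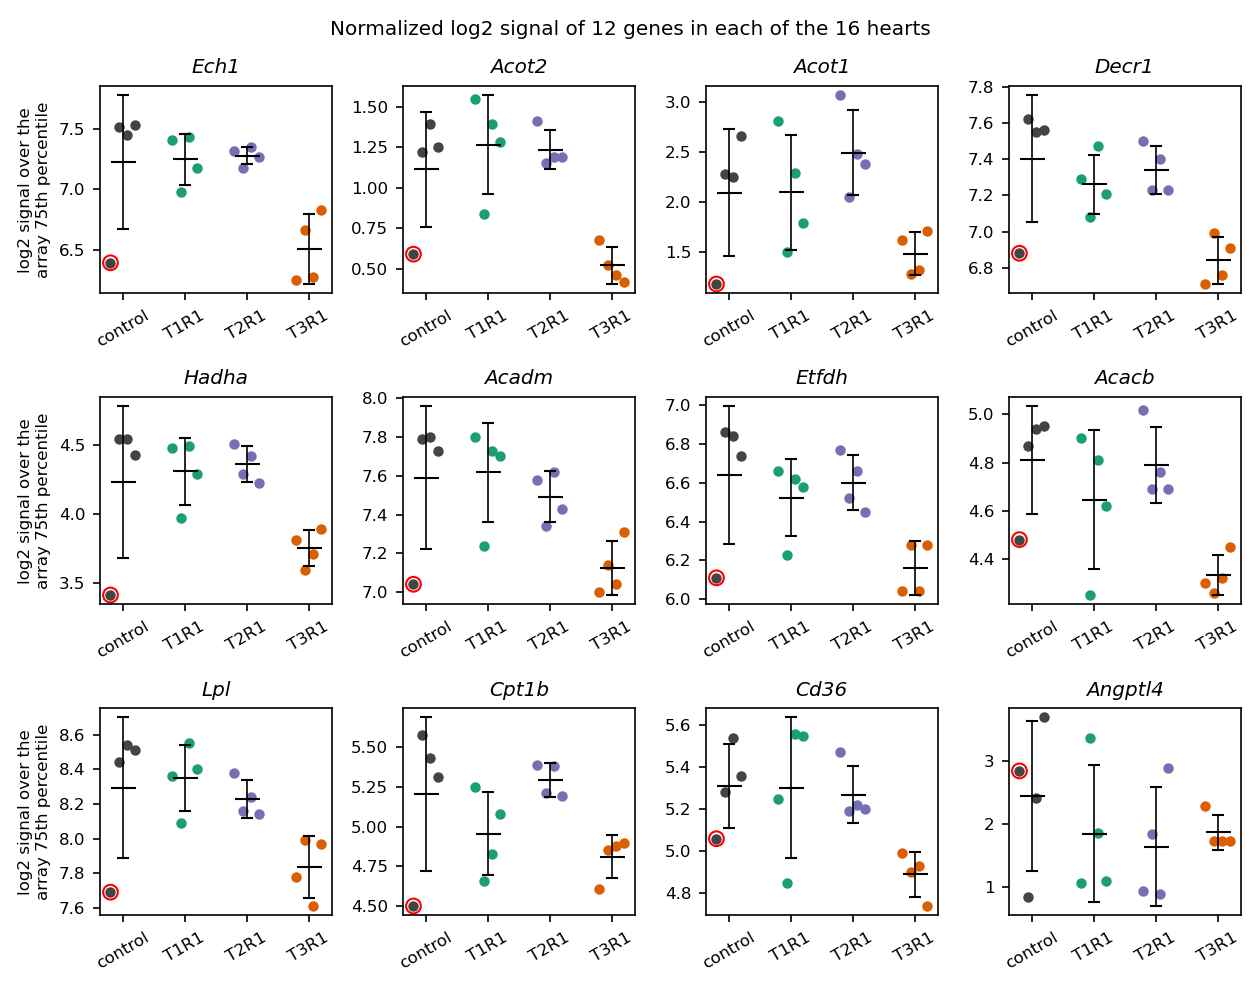
Normalized log2 signal (vertical axis, over the 75th percentile of the array) of 12 genes in each heart, by group (horizontal axis); points are single arrays, the horizontal bar is the mean of 4 arrays and the whisker 1 SD, and a red ring marks control replicate 1. For Ech1, Acot2, Hadha and Decr1 all T3R1 points lie below all T1R1 and T2R1 points, and the ringed control lies near or below the T3R1 points, whereas Angptl4 overlaps throughout.

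Of the lipases that free stored triglyceride, Pnpla2 was called lower in T3R1 without control replicate 1 and Lipe was not. Pnpla2, which encodes the adipose triglyceride lipase that also works in heart muscle, ranged from 5.84 to 6.71 in control and from 5.71 to 6.04 in T3R1, with a difference of -0.46 (SE 0.17, adjusted p = 0.148), or -0.62 without control replicate 1 (SE 0.15, adjusted p = 0.00789). Lipe, the hormone-sensitive lipase, ranged from -0.72 to 0.23 in control and from -1.35 to -0.44 in T3R1, and its difference of -0.53 with all controls (adjusted p = 0.227) and of -0.50 without control replicate 1 (adjusted p = 0.197) did not pass. The 2 highest Lipe values of all, 0.23 and -0.25, were those of control replicates 4 and 1. The summed signal of 9 adipocyte markers was also highest there, at 248.0 and 280.1 times the 75th percentile, against 24.44 to 172.3 on all other arrays. Angptl4 was high on the same control arrays, at 3.69 and 2.84, and it also read 3.37 on T1R1 replicate 2, where the adipocyte sum was 37.54. The part of adipose tissue in the values of Lipe and Angptl4 was not tested.

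Of the carnitine palmitoyltransferases, Cpt1b and Cpt2 were called lower in T3R1 without control replicate 1 and Cpt1a was not. Cpt1b, the muscle form of the outer membrane enzyme that sets the rate of entry, read 4.50, 5.58, 5.43 and 5.31 in control and 5.25, 4.66, 4.83 and 5.08 in T1R1. It read 5.39, 5.21, 5.38 and 5.19 in T2R1 and 4.61, 4.85, 4.88 and 4.90 in T3R1. All T3R1 values lay below control replicates 2 to 4 and below T2R1. The T1R1 values overlapped both T3R1 and T2R1, and they too lay below control replicates 2 to 4. Its difference between T3R1 and control was -0.39 (SE 0.19, adjusted p = 0.249) and -0.63 without control replicate 1 (SE 0.13, adjusted p = 0.00386). Without that array Cpt1b was also called lower in T1R1, at -0.49 (SE 0.13, adjusted p = 0.0263). Cpt2, the inner membrane enzyme, gave -0.47 and, without control replicate 1, -0.66 (adjusted p = 0.00299).

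Cpt1a, the liver form that the adult heart also expresses, ranged from 1.16 to 1.60 in control and from 1.42 to 1.54 in T3R1. Its T3R1 difference was 0.04 (SE 0.10, adjusted p = 0.854), and 0.09 without control replicate 1 (SE 0.09, adjusted p = 0.470). The sign turned to -0.051 when control replicate 2 was left out. Cpt1a was the only member with a positive difference in T3R1 with all controls, and its second probe gave 0.01.

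Acacb and Mlycd act on malonyl-CoA, the inhibitor of carnitine palmitoyltransferase 1: the carboxylase made from Acacb produces it and the decarboxylase made from Mlycd removes it. Acacb read 4.48, 4.87, 4.94 and 4.95 in control, 4.90, 4.25, 4.81 and 4.62 in T1R1, 5.02, 4.69, 4.76 and 4.69 in T2R1, and 4.30, 4.26, 4.32 and 4.45 in T3R1. Every T3R1 value was below every T2R1 and control value. Acacb fell in T3R1 against T2R1 by 0.46 (SE 0.14, adjusted p = 0.0282), and its difference from control was -0.48 (SE 0.14, adjusted p = 0.0906), or -0.59 without control replicate 1 (adjusted p = 0.00638). Mlycd gave -0.54 and -0.81 in these comparisons with control (adjusted p = 0.180 and 0.00261). The RNA of the producing and of the removing enzyme was thus lower in T3R1 when that array was left out.

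The acyl-CoA dehydrogenases open each turn of the spiral and differ in the chain length they take. Without control replicate 1 all 4 were lower in T3R1: Acadvl for very long chains at -0.66, Acadl for long chains at -0.59, Acadm for medium chains at -0.65 and Acads for short chains at -0.86, with adjusted p-values of 0.00161, 0.00911, 0.00273 and 0.00388. With all controls the differences were -0.41, -0.45, -0.47 and -0.54 and none passed. Acadm read 7.04, 7.79, 7.80 and 7.73 in control and 7.80, 7.24, 7.73 and 7.70 in T1R1. It read 7.58, 7.34, 7.62 and 7.43 in T2R1 and 7.0, 7.14, 7.04 and 7.31 in T3R1. T3R1 lay below all of T2R1, and overlapped T1R1 only through T1R1 replicate 2. Acadm fell in T3R1 against T1R1 by 0.50 (SE 0.17, adjusted p = 0.0442).

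All 5 genes of the later steps of the spiral were lower in T3R1 without control replicate 1. Hadha, the alpha subunit of the mitochondrial trifunctional protein that handles long chains, read 3.41 on control replicate 1 and 4.54, 4.54 and 4.43 on the other controls. It read 4.48, 3.97, 4.49 and 4.29 in T1R1, 4.51, 4.29, 4.42 and 4.22 in T2R1, and 3.81, 3.59, 3.71 and 3.89 in T3R1. Control replicate 1 was the lowest of all 16 arrays, and apart from it the T3R1 values lay below every other array. Hadha fell in T3R1 against T2R1 by 0.61 (SE 0.21, adjusted p = 0.0440), and without control replicate 1 its difference from control was -0.75 (SE 0.12, adjusted p = 0.00105).

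Hadhb, the beta subunit of the same complex, gave -0.56 with all controls (SE 0.17, adjusted p = 0.0903). Without control replicate 1 it gave -0.76 (SE 0.10, adjusted p = 0.000374), the smallest adjusted p of the members against control in that fit. Acaa2, the thiolase for medium chains, gave -0.55 and -0.80, Hadh, the dehydrogenase for shorter chains, -0.51 and -0.74, and Echs1, the short-chain hydratase, -0.40 and -0.63. The RNAs of the subunits of the trifunctional protein thus differed from the remaining controls by nearly the same amount. They were at 0.594 times the level of these controls for Hadha and 0.589 times for Hadhb.

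Decr1 and Ech1 encode auxiliary enzymes that act on double bonds so that unsaturated chains can pass through the spiral. Both genes were among the members that differed most. Ech1, read by a probe at chr7:29616256-29616416 (mm9, the build of the array design), gave 6.39 on control replicate 1 and 7.52, 7.45 and 7.53 on the other controls. It gave 7.41, 6.98, 7.43 and 7.18 in T1R1, 7.32, 7.18, 7.35 and 7.27 in T2R1, and 6.25, 6.66, 6.27 and 6.83 in T3R1. The T3R1 arrays lay below all T1R1 and T2R1 arrays, and control replicate 1 lay inside their range. Ech1 fell in T3R1 by 0.74 against T1R1 (SE 0.22, adjusted p = 0.0272) and by 0.77 against T2R1 (adjusted p = 0.0195). With all controls the T3R1 difference was -0.72 (SE 0.22, adjusted p = 0.0956), and leaving out control replicate 1 gave -1.0 (SE 0.14, adjusted p = 0.000481). That was a level 0.501 times that of the remaining controls and the largest difference of any member from control in that fit.

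Decr1, the mitochondrial 2,4-dienoyl-CoA reductase, read 6.88, 7.62, 7.55 and 7.56 in control, 7.29, 7.08, 7.47 and 7.21 in T1R1, 7.5, 7.23, 7.4 and 7.23 in T2R1, and 6.71, 6.99, 6.76 and 6.91 in T3R1. All T3R1 values were below all T1R1 and T2R1 values. Decr1 fell in T3R1 against T2R1 by 0.50 (SE 0.15, adjusted p = 0.0239), and its difference from control was -0.56 (SE 0.15, adjusted p = 0.0705), or -0.73 without control replicate 1 (adjusted p = 0.000443).

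Electron transfer from the dehydrogenases runs through Etfa and Etfb, the subunits of the electron transfer flavoprotein, and Etfdh, which hands the electrons to ubiquinone. Etfdh read 6.11, 6.86, 6.84 and 6.74 in control, 6.66, 6.23, 6.62 and 6.58 in T1R1, 6.77, 6.52, 6.66 and 6.45 in T2R1, and 6.04, 6.28, 6.04 and 6.28 in T3R1. T3R1 lay below all of T2R1 and overlapped T1R1 replicate 2. Etfdh fell in T3R1 against T2R1 by 0.44 (SE 0.16, adjusted p = 0.0493), a call that was lost in the fit of all probes (adjusted p = 0.0510 for the same probe). The 3 genes differed from control by -0.47, -0.47 and -0.48 with all controls, with none called, and by -0.62, -0.74 and -0.65 without control replicate 1, with all 3 called (adjusted p = 0.00306, 0.000694 and 0.00161). Acss1, the mitochondrial acetyl-CoA synthetase that activates acetate, gave -0.46 and -0.69, the second with an adjusted p of 0.00464.

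The genes of the acyl-CoA thioesterases, which release free fatty acid from its CoA ester, both read lower in T3R1 than in T2R1. Acot2, the mitochondrial form, read 0.59, 1.22, 1.39 and 1.25 in control, 1.55, 0.84, 1.39 and 1.28 in T1R1, 1.41, 1.15, 1.19 and 1.19 in T2R1, and 0.68, 0.52, 0.46 and 0.42 in T3R1. Every T3R1 value was below every T1R1 and T2R1 value, and control replicate 1 was inside the T3R1 range. Acot2 fell in T3R1 by 0.74 against T1R1 (SE 0.17, adjusted p = 0.00685) and by 0.71 against T2R1 (adjusted p = 0.00700), and it had the smallest F-test p of the members (adjusted p = 0.0131 over the 4 groups).

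Acot1, the cytosolic form and its neighbour on chromosome 12, read 1.18, 2.28, 2.25 and 2.66 in control, 2.81, 1.5, 2.29 and 1.79 in T1R1, 3.07, 2.05, 2.48 and 2.38 in T2R1, and 1.62, 1.28, 1.32 and 1.71 in T3R1. All T3R1 values lay below all T2R1 values, and they overlapped T1R1 through its replicate 2. Acot1 fell in T3R1 against T2R1 by 1.01 (SE 0.32, adjusted p = 0.0317), the largest difference of any member in any contrast with all arrays. Acot1 and Acot2 are close copies of each other; their probes lie at chr12:85358561-85358620 and chr12:85334071-85334130 (mm9), and how far each probe also reads the other transcript was not tested. The difference of Acot1 between T1R1 and control was 0.01 (adjusted p = 0.993) and turned negative in several of the alternatives tried.

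Ucp3, a mitochondrial carrier that follows fatty acid supply in muscle, read 2.14, 2.28, 2.37 and 2.52 in control, 2.59, 2.58, 2.32 and 2.49 in T1R1, 2.24, 2.21, 2.26 and 2.33 in T2R1, and 2.40, 2.35, 2.18 and 2.19 in T3R1. The groups overlapped, except that 3 of 4 T1R1 values lay above all T2R1 values. Its T3R1 difference from control was -0.05 (SE 0.09, adjusted p = 0.811) and -0.11 without control replicate 1 (adjusted p = 0.392), and its sign turned with quantile normalization (0.0053), in the authors' deposited table (0.011) and without control replicate 4 (0.019). A second, dimmer Ucp3 probe gave larger negative differences, -0.93 against T1R1 (adjusted p = 0.0697) and -0.84 against T2R1 (adjusted p = 0.0899), so the Ucp3 probes disagreed.

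**Figure D3:**
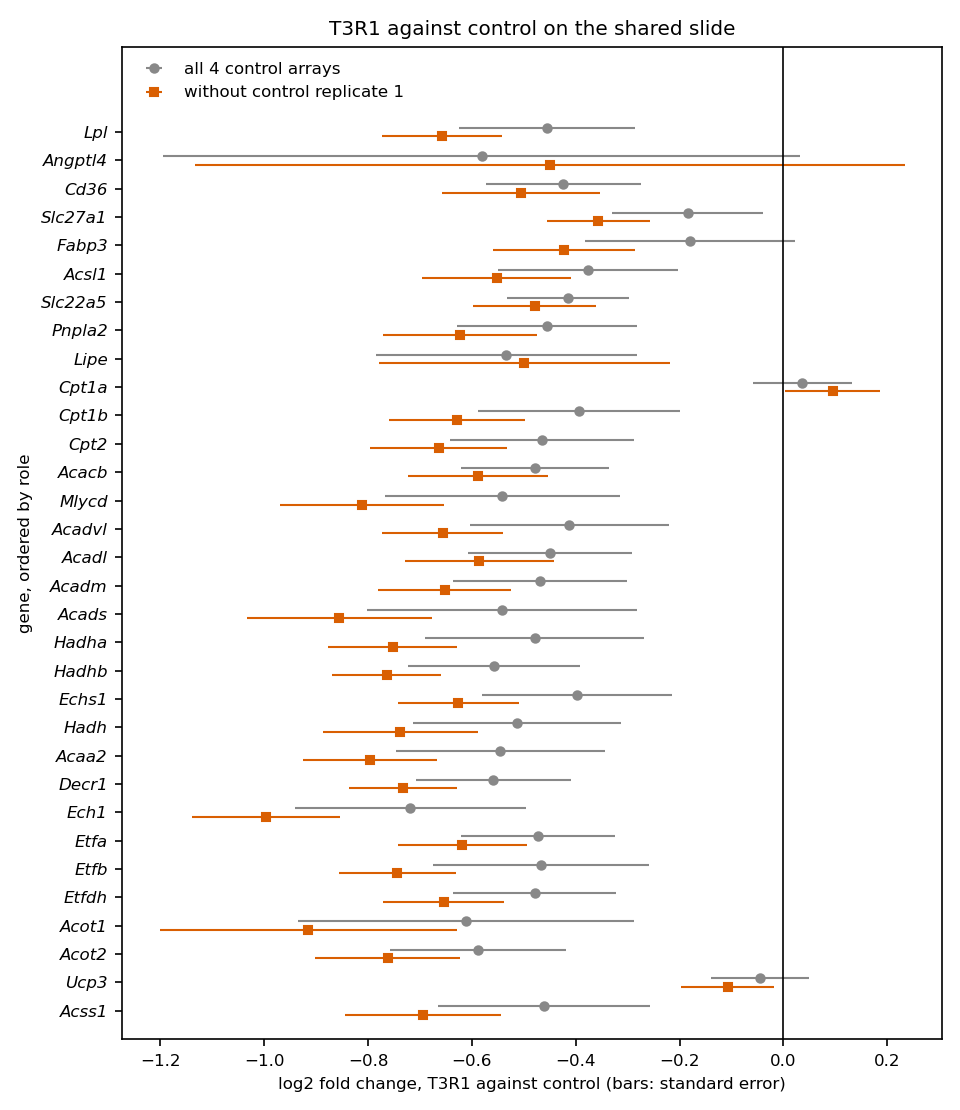
Log2 fold change of T3R1 against control (horizontal axis) with its standard error for the 32 genes (vertical axis, by role), with all 4 control arrays (grey circles) and without control replicate 1 (orange squares). With all controls 31 of 32 values are negative and none was called; without that array 28 were called lower, and Cpt1a, Ucp3, Angptl4 and Lipe were not.

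Other genes with a second kept probe were Acacb, Acsl1, Cpt1a, Cpt1b, Cpt2, Decr1, Etfa, Fabp3 and Lpl. Each of these 9 second probes had the same sign as the main probe in T3R1 against control. In the fit of all probes, the second Fabp3 probe was called lower in T3R1 against T2R1 (-0.60, adjusted p = 0.0454) where the main one was not (-0.38, adjusted p = 0.186 in the same fit), and the second Etfa probe was called in T3R1 against T1R1 (-0.43, adjusted p = 0.0354). The second Lpl probe gave -0.40 against T1R1 (adjusted p = 0.183), so the call of Lpl rested on 1 of its 2 probes. The second Acacb and Decr1 probes gave -0.13 (adjusted p = 0.616) and -0.41 (adjusted p = 0.0672) against T2R1 and were not called either.

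Few members were called after the shorter exposures. Against control, 0 of 32 members were called in T1R1, where 9.85% of all features were called, and 0 in T2R1, where the background was 18.4%. At an unadjusted p under 0.05, 1 member passed in T1R1 and 1 in T2R1, against 25.9% and 30.9% of all features. The median difference of the members was -0.09 in T1R1 and -0.05 in T2R1, against -0.01 and 0.02 over all features. Neither median kept its sign: in T1R1 it was 0.015 with quantile normalization, 0.036 in the authors' deposited table and 0.022 without T1R1 replicate 2, and in T2R1 it was 0.0049, 0.020 and 0.0040 without control replicates 2, 3 and 4. Without control replicate 1 the members' medians were -0.28 and -0.24, with 5 genes called lower in T1R1 (Cpt1b, Acadvl, Hadhb, Etfb and Mlycd; background of lower calls 9.65%) and 2 in T2R1 (Hadh and Hadhb; background 9.37%). With each array scaled to its median in place of its 75th percentile, the median of all features shifted to -0.44 in T1R1 and -0.37 in T2R1, and 18 and 8 members were then called lower, beside 44.5% and 34.1% of all features. This change of scaling shifts all features of an array by 1 constant, so by construction it leaves the members' medians relative to all features at -0.08 and -0.07. Relative to all features they were 0.03 and -0.03 with quantile normalization and 0.05 and -0.02 in the authors' deposited table.

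T2R1 and T1R1 were read on the same slide. No member was called, no feature of the whole array was (background 0%), and at an unadjusted p under 0.05 the counts were 1 member and 7.83% of all features. The members' differences ran from -0.23 for Ucp3 to 0.40 for Acot1, with a median of 0.03.

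T3R1 against the shorter exposures gave the calls named above. Against T1R1, 4 members fell (Acot2, Ech1, Acadm and Lpl) and none rose, where 15.2% of all features fell and 22.9% were called in either direction, and the median was -0.35 against -0.07 over all features. Against T2R1, 7 fell (Acot2, Decr1, Ech1, Acacb, Etfdh, Hadha and Acot1), where 20.4% of all features fell and 26.9% were called in either direction, and the median was -0.38 against -0.09. The shares called, 4 and 7 of 32, were near the background. In T3R1 against T2R1 all T3R1 values lay below all T2R1 values for 20 members, against 25.5% of all features. In T3R1 against T1R1 this held for 7 members, against 16.5% of all features, and 7 members had every T3R1 value below every T1R1 and T2R1 value, against 13.9% of all features. The F test over the 4 groups called Acot2, Decr1 and Ech1, with a background of 26.8%.

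These between-slide counts moved with single arrays and with the scaling. Without control replicate 1, which enters them only through the shared estimate of the spread, 18 and 19 members were called lower against T1R1 and T2R1, beside 20.2% and 25.9% of all features. The count against T1R1 was 12 without T1R1 replicate 2, 2 without T1R1 replicate 4 or without any of the T2R1 arrays, and 1 without replicate 1 or 3 of T1R1 or of T3R1. The count against T2R1 was 4 without T2R1 replicate 4, 3 without T3R1 replicate 2, 2 without replicate 1 or 3 of T2R1, and 1 without replicate 1 or 3 of T3R1. Over all settings with 1 array left out, the share of all features called lower ran from 10.3% to 20.2% against T1R1 and from 14.8% to 25.9% against T2R1. With each array scaled to its median neither comparison called a member, while 5.67% and 9.67% of all features were called lower: the median of all features then shifted to 0.33 against T1R1 and 0.26 against T2R1, and the members' medians were 0.05 and -0.02. Relative to the median of all features the members' medians were -0.28 against T1R1 and -0.29 against T2R1, which such a scaling cannot change; they were -0.37 and -0.26 with quantile normalization and -0.33 and -0.25 in the authors' deposited table.

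Other genes of the pathway, taken from lists written by name, were read beside the members. Shares of all features, as background for these and the marker lists below, were as follows. In T3R1 against control 0.505% were called higher, 0.189% lower, and 22.4% passed an unadjusted p under 0.05. Without control replicate 1, 10.2% were higher and 19.2% lower in T3R1, 8.18% and 9.65% in T1R1, and 15% and 9.37% in T2R1. With all arrays, T3R1 had 7.65% called higher against T1R1 and 6.59% against T2R1. Of 16 tested genes of uptake, acyl-CoA activation and the carnitine shuttle, 1 rose and none fell in T3R1 against control, while without control replicate 1 the counts were 5 and 6. The riser was Cpt1c, the brain form of carnitine palmitoyltransferase 1, at 0.51 (adjusted p = 0.0346), which also rose by 1.01 in T3R1 against T2R1 (adjusted p = 3e-05) and fell in T1R1 and T2R1 against control (-0.46 and -0.50, adjusted p = 0.00944 and 0.00314). Slc27a3, a transport protein family member, rose in T3R1 against T1R1 and T2R1 by 0.89 and 0.74 (adjusted p = 0.00593 and 0.0131). Cpt1c was thus called higher in the comparison with all controls in which neither Cpt1a (0.04) nor Cpt1b (-0.39) was called. In the whole list 3 genes rose in T3R1 against T1R1, and 3 rose and 1 fell against T2R1.

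Of 19 other mitochondrial oxidation genes none was called in T3R1 against control by limma, 10 passed an unadjusted p of 0.05, and without control replicate 1 the counts were 13 lower and 2 higher. Acadsb and Acad8, dehydrogenases of branched-chain acyl-CoA, gave -0.27 and -0.51 with all controls (adjusted p = 0.179 and 0.0931). Of 18 peroxisomal genes 1 fell, Pex11a, a peroxisome division protein and known PPAR target, at -0.65 (adjusted p = 0.0354), and without control replicate 1 the counts were 7 lower and 1 higher. Decr2, the peroxisomal counterpart of Decr1, rose in T3R1 against T1R1 and T2R1 by 0.52 and 0.34 (adjusted p = 0.00217 and 0.0209).

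Among 7 ketone body genes, Slc16a1, a monocarboxylate transporter, and Bdh1, the mitochondrial beta-hydroxybutyrate dehydrogenase, rose in T1R1 (0.64 and 0.62, adjusted p = 0.00351 and 0.0329) and in T2R1 (0.87 and 0.57, adjusted p = 0.000340 and 0.0305), and none of the 7 was called by limma in T3R1 against control (2 unadjusted); without control replicate 1, 4 were lower and 1 higher. Of 13 tested PPAR targets outside the members, Cyp4a10, a fatty acid omega-hydroxylase, rose in T1R1 and T2R1 by 0.74 and 0.89 (adjusted p = 0.00210 and 0.000357), and 1 gene, Pex11a, fell in T3R1, with 8 lower once control replicate 1 was left out. These rises of Slc16a1, Bdh1 and Cyp4a10 compare arrays of different slides. Leaving out control replicate 1 added lower calls in T1R1 and T2R1 too: 6 and 9 of the other mitochondrial oxidation genes, 5 and 4 of the peroxisomal genes and 3 and 4 of the PPAR targets were then lower.

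Of 20 regulators, all 20 had a negative difference in T3R1 against control, against 61.6% of all features. Of these, 1 fell and 12 passed an unadjusted p of 0.05, against 22.4% of all features. Without control replicate 1, 13 were lower, beside 6 in T1R1 and 4 in T2R1. All features called lower were then 19.2% in T3R1, 9.65% in T1R1 and 9.37% in T2R1. The gene that fell was Sirt1, a deacetylase that acts on PGC-1 alpha, at -0.46 (adjusted p = 0.0423). The calls of Sirt1, Pex11a and Cpt1c in T3R1 against control were not stable. Over these genes together, 46 results of the alternatives kept the sign but lost the call. With control replicate 2, 3 or 4 left out, 3, 4 and 9 features of the whole array were called in that comparison. Rxra, the obligate partner of the PPARs, rose in T2R1 by 0.57 (adjusted p = 0.0444) and fell in T3R1 against T2R1 by 1.03 (adjusted p = 0.00108). Once control replicate 1 was left out, no regulator was called higher in T2R1, and both of these Rxra comparisons cross slides. Of 16 lipid droplet and triglyceride genes none was called by limma in T3R1 against control (5 unadjusted; 5 lower without control replicate 1), and G0s2, an inhibitor of the lipase made from Pnpla2, fell in T3R1 against T1R1 and T2R1 by 0.98 and 0.71 (adjusted p = 0.00736 and 0.0311). Cidea, a lipid droplet protein and adipocyte marker, fell in T1R1 by 0.82 (adjusted p = 0.0439). Of 11 fatty acid synthesis genes none was called by limma in T3R1 against control (2 unadjusted; 1 higher and 1 lower without control replicate 1). Scd2, a desaturase, rose against T1R1 and T2R1 by 1.17 and 1.24 (adjusted p = 0.0118 and 0.00691) and Mlxipl, a carbohydrate-responsive factor, fell against T2R1 by 0.42 (adjusted p = 0.0454).

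Cardiomyocyte markers leaned the same way as the members in T3R1, and in these bulk samples fewer cells of a type and less RNA per cell cannot be told apart. All 12 cardiomyocyte markers were well above background on every array. Their summed signal was 4436 times the 75th percentile on control replicate 1, from 8012 to 9390 on the other controls, from 6673 to 7717 in T1R1, from 7359 to 8567 in T2R1 and from 5569 to 7613 in T3R1. With all controls limma called 0 of 12 in T3R1 (1 unadjusted), and without control replicate 1, 7 of 12 were lower, with a median of -0.47 beside -0.65 for the members, while 2 were lower in T1R1 and none in T2R1. Their median deviation from control replicates 2 to 4 was -0.59, -0.25, -0.53 and -0.19 on the T3R1 arrays, and the 2 T3R1 arrays with the lowest cardiomyocyte values, replicates 1 and 3, were also the 2 lowest for the members.

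Fibroblast and macrophage markers ran the other way. Of 6 fibroblast markers 3 rose in T3R1 against control (4 without control replicate 1, with 3 in T2R1 and none in T1R1), 5 against T1R1 and 3 against T2R1, and their summed signal was 497.4 on control replicate 1, from 299.6 to 323.5 on the other controls, from 254.5 to 296.6 in T1R1, from 348.8 to 376.9 in T2R1 and from 544.8 to 684.6 in T3R1. Of 6 tested macrophage markers 4 rose in T3R1 against T1R1 and 3 against T2R1, and once control replicate 1 was left out, 5 were higher than control in T3R1 and 2 each in T1R1 and T2R1. Their sum was 84.37 on control replicate 1, 42.71 to 50.04 on the other controls, 46.87 to 54.08 in T1R1, 49.13 to 59.35 in T2R1 and 68.08 to 84.53 in T3R1. Of 8 endothelial markers, among whose cells Cd36 and Lpl protein are also found, none was called by limma in T3R1 against control (5 unadjusted), 1 fell in T2R1 against control and 1 in T3R1 against T1R1, and once control replicate 1 was left out, the lower calls numbered 2 in T1R1, 3 in T2R1 and 4 in T3R1. The endothelial sum was 104.6 on control replicate 1, 138.7 to 150.5 on the other controls and 93.15 to 107.7 in T3R1. Control replicate 1 thus lay below the T3R1 range for cardiomyocyte markers, within it for macrophage and endothelial markers, and between the other controls and T3R1 for fibroblast markers. The part of cell makeup in the members' values was not tested.

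**Figure D4:**
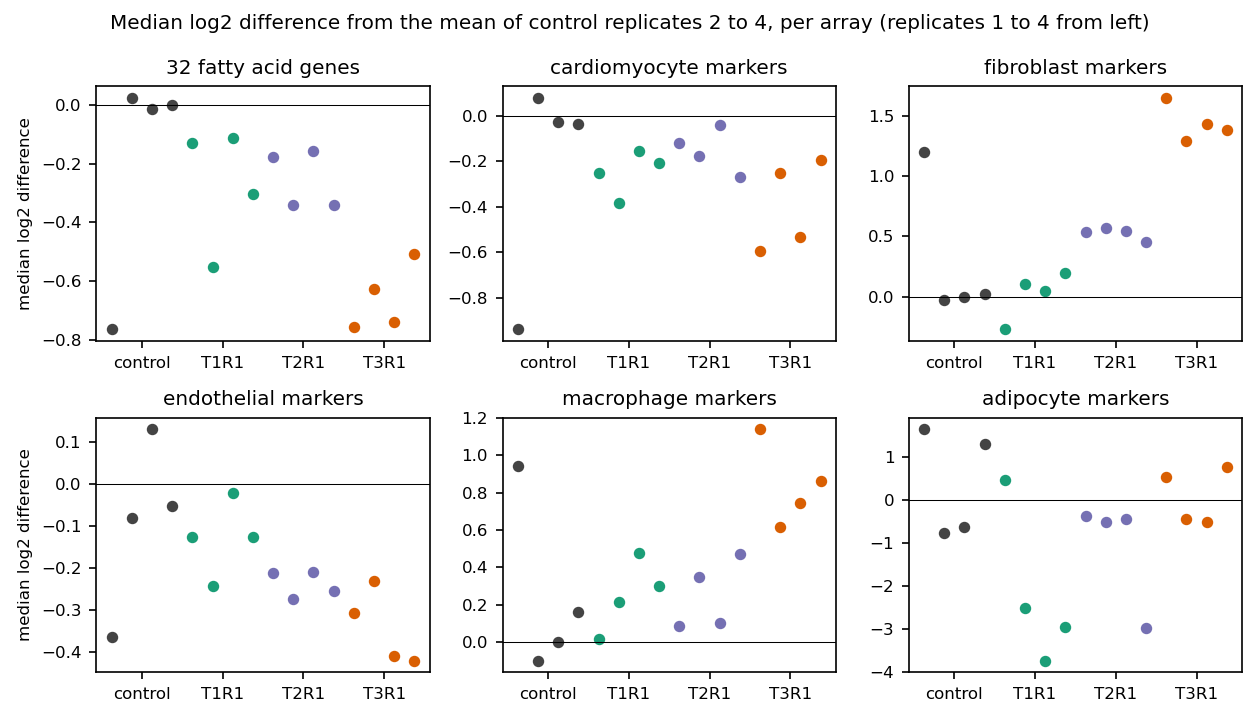
Median log2 difference from the mean of control replicates 2 to 4 (vertical axis) for the 32 genes and for 5 marker lists, on each array (horizontal axis, by group, replicates 1 to 4 from left to right). Control replicate 1 lies with the T3R1 arrays for the 32 genes, at -0.77 beside -0.76 to -0.51, and the fibroblast and macrophage markers are higher on those same arrays.

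Of 9 tested adipocyte markers 4 fell in T1R1 against control, none was called in T2R1 or T3R1 against control, and 3 rose in T3R1 against T1R1. Once control replicate 1 was left out, 1 of them was lower in T1R1 and 1 higher in T2R1. None of 7 tested liver markers was called in any exposure, though their sum reached 82.23 in T1R1 beside 11.42 to 19.92 in control. Of 5 atrial markers 2 fell in T2R1, and once control replicate 1 was left out, 3 were lower in each exposure, with medians of -0.80 in T1R1, -0.995 in T2R1 and -0.75 in T3R1. Of 3 tested red blood cell markers 1 rose in T2R1, and none was called against control once control replicate 1 was left out. Among 8 skeletal muscle markers, 5 (Myh1, Myh2, Myh4, Actn3 and Mylpf) did not pass the filter on dim probes. None of the 3 tested was called against control with all controls. Without control replicate 1, 1 of these 3 was higher in T2R1, and in T3R1 1 was higher and 1 lower.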

How the data were processed

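RNA of 16 individual mouse hearts, extracted with TRIzol and labelled with Cy3, was read on 1-colour Agilent arrays. Per the file headers, the processed intensity of each spot came from Feature Extraction 10.7.3.1, with the background subtracted and the spatial trend removed within each array; mean spot and background intensity were deposited too, uncorrected. The table the authors deposited holds log2 values, with nearly the same distribution on every array and the ranks of the uncorrected intensity; how it was made is not given in these sources. Other columns are flags, deposited per the file headers as 0 or 1.

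Outlier spots were left out, log2 processed intensity was scaled to the 75th percentile of each array, and replicate spots were averaged. Probes entered when every array of some group read them well above background (31386 of 55681), and a gene took its probe of highest mean. Using limma 3.58.1 (R 4.3.3), the 4 groups shared 1 model, tested two-sided, with Benjamini-Hochberg adjustment over 22762 features and a threshold of 0.05. The model was also run on simulated data. Their noise was independent between features, so no whole array departed as control replicate 1 did. Those data cannot show how the model handles such an array. Second probes were tested in a separate fit of all 31386 kept probes, adjusted over these probes. Probe names were updated through RefSeq (26762 by accession, 3819 as current symbols, 25100 kept). Probe positions are those of the mm9 design; which exon or UTR they lie in was not looked up here.

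All 32 members are named. Values for every array are given for the 9 members called in any contrast and for Cpt1b, Acadm, Hadha, Cd36, Lpl, Ucp3 and Angptl4, and each pathway list is shown by its 2 genes of smallest F-test p; Pex11a is in 2 lists. The members and the lists were chosen with earlier results of these data known. The number of arrays limits the precision. Alternatives covered background correction, scaling, the authors' values, the probe filter, the groups in the fit, array weights, the replicate number as a block, and each array left out.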

Additional observations from a re-analysis of the deposited data

Results flagged for a closer look

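Of 128 sets of 4 arrays (32 genes in 4 groups), 16 had an array set apart from the other 3, judged by Dixon's test on its gap to the nearest array as a share of the group's range; chance gives about 1 in 20 such sets, and members share arrays. Control replicate 1 was the low array in 11 of the 16. Its gap was 0.869 for Cpt2, 0.912 for Acadm, 0.849 for Acadvl, 0.907 for Hadha, 0.930 for Hadhb, 0.905 for Decr1, 0.933 for Ech1, 0.904 for Echs1, 0.918 for Acaa2, 0.879 for Lpl and 0.849 for Etfdh. T1R1 replicate 2 was low for Cpt2 (0.879) and T3R1 replicate 1 for Cpt1b (0.842). T2R1 replicate 1 was high for Acot2 (0.836) and Cd36 (0.907), and T3R1 replicate 1 was high for Angptl4 (0.975).

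The exposures differed from each other in 11 tests of the difference itself by limma. T3R1 against T1R1 gave -0.50 for Acadm, -0.74 for Ech1, -0.74 for Acot2 and -0.51 for Lpl. T3R1 against T2R1 gave -0.61 for Hadha, -0.50 for Decr1, -0.77 for Ech1, -1.01 for Acot1, -0.71 for Acot2, -0.44 for Etfdh and -0.46 for Acacb. Slide and exposure cannot be told apart in these.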

How the results depend on the processing

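The call counts of members changed as follows; percentages give the share of all features called in either direction under the same setting. For the F test (3 called, 26.8%) they were 6 with normexp background correction (23.4%), 6 with quantile normalization (23.2%), 11 with median scaling (56.1%), 11 in the authors' deposited table (28.3%), 1 with no filter on dim probes (15.3%), 26 with array weights (59.4%), 27 without control replicate 1 and T1R1 replicate 1 together (51.1%), and 1 to 27 with each array left out in turn (19.3% to 48.8%). For T3R1 against control (0, 0.694%) they were 2 in the authors' deposited table (1.63%), 27 with array weights (34.0%), 28 without the same pair of arrays (31.0%) and 0 to 28 with each array left out (0.0132% to 29.4%). For T1R1 against control (0, 9.85%) they were 18 with median scaling (47.2%), 2 with array weights (19.6%), 9 without the pair (22.0%) and 0 to 5 with each array left out (5.89% to 17.8%), and for T2R1 against control (0, 18.4%) they were 8 (40.2%), 8 (38.9%), 3 (25.9%) and 0 to 2 (12.4% to 24.4%). For T3R1 against T1R1 (4, 22.9%) they were 11 with quantile normalization (20%), 0 with median scaling (38.6%), 16 in the authors' deposited table (21.8%), 2 with no filter (14.0%), 7 with only the groups compared (21.0%), 15 with array weights (28.0%), 8 without the pair (27.2%) and 1 to 18 with each array left out (15.4% to 31.3%). For T3R1 against T2R1 (7, 26.9%) they were 0 with median scaling (33.9%), 3 with no filter (16.5%), 20 with only the groups compared (36.9%), 22 with array weights (40.7%), 20 without the pair (37.6%) and 1 to 19 with each array left out (18.5% to 36.6%). T2R1 against T1R1 had 0 calls in all alternatives run for it.

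Combinations without control replicate 1 were chosen after seeing the data. With normexp, quantile normalization, median scaling, the authors' deposited table and only the groups compared, in that order, T3R1 against control then had 28, 25, 22, 24 and 26 calls, all lower (features called lower 31.2%, 14.3%, 7.26%, 14.4% and 17.3%), T3R1 against T1R1 had 15, 18, 0, 17 and 7 (25.6%, 14.8%, 6.26%, 15.3% and 14.0%), T3R1 against T2R1 had 21, 14, 0, 15 and 20 (29.4%, 18.7%, 10.6%, 19.9% and 25.6%), T1R1 against control had 5, 0, 27, 0 and 0 (9.92%, 5.22%, 41.4%, 8.30% and 1.23%), and T2R1 against control had 3, 0, 24, 1 and 12 (10.5%, 8.23%, 33.0%, 11.7% and 12.4%). The F test had 27, 23, 27 and 23 with the first 4 settings (features called 54.9%, 41.4%, 62.1% and 46.7%).

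Replicate numbers did not pair the samples: 9 of 24 pairs of the same number had deviations correlated above 0.1 (range -0.324 to 0.391) and 5 of 16 arrays correlated best with their own number. With the replicate block the F test called 1 member, beside 25.1% of all features. The counts were 2 for T3R1 against T1R1 (22.3% of all features) and 5 for T3R1 against T2R1 (26.2%). For the other contrasts the count was 0. The shares of all features there were 9.96% in T1R1, 18% in T2R1 and 0.189% in T3R1 against control, and 0% in T2R1 against T1R1.

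Signs turned for Acot1, Cpt1a, Fabp3 and Ucp3. Acot1 in T1R1 against control was -0.033 with normexp, -0.43 with median scaling, -0.28 with array weights, -0.54 without the pair of arrays, and, with single arrays left out, -0.30 (control replicate 1), -0.23 (T1R1 replicate 1) and -0.06 (T1R1 replicate 3); without control replicate 1 it was -0.30 with normexp, -0.22 with quantile normalization, -0.70 with median scaling, -0.24 in the authors' deposited table and -0.30 with only the groups compared. Acot1 in T2R1 against control, 0.40 with all arrays, was -0.25 with median scaling and without control replicate 1. In T3R1 against control, Cpt1a was -0.051 without control replicate 2, Fabp3 was 0.042 with quantile normalization and 0.022 in the authors' deposited table, and Ucp3 was 0.0053 and 0.011 under these settings and 0.019 without control replicate 4. With arrays left out, the ranges were -0.54 to 0.21 for Acot1 in T1R1 against control, and in T3R1 against control -0.051 to 0.094 for Cpt1a and -0.11 to 0.019 for Ucp3. Causes were not tested. Calls against T1R1 and T2R1 across slides, and calls against control that need control replicate 1 left out, are the limits of these data.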
